A study of Mus musculus with 6 samples.

Results

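The S100 genes described here are 8 genes for small, mostly calcium-binding proteins: S100a8, S100a9, S100a6, S100a11, S100a13, S100a1, S100a10 and S100a4. They were taken by gene symbol from the 47561 rows of the deposited files, where each of the 8 symbols had 1 row, and all 8 were among the 15778 genes tested. The cells were neutrophils sorted by flow cytometry from the bone marrow of male WT mice. The compared groups were CUMS, mice kept under chronic unpredictable mild stress for 4 weeks, and Control, mice without that stress, with 3 RNA sequencing libraries in each. The sources used here do not give the mouse strain, the age, the surface markers used for sorting or the number of animals behind a library, so the p-values measure the spread between these samples, which may be partly technical. The question addressed was whether the transcripts of this family differed between neutrophils of CUMS and Control mice, and how widely the libraries of each group spread.

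S100 proteins are vertebrate proteins built around EF-hands. In most of them these are loops that bind calcium and so change the surface with which the protein grips its targets. S100A8 and S100A9 pair up as calprotectin, the most abundant cytosolic protein complex of neutrophils, which withholds zinc and manganese from microbes. When released it acts as an alarmin, a molecule of damaged or activated cells that other cells sense through the toll-like receptor TLR4 and the receptor RAGE. The other members act mostly inside the cell: S100A10, S100A11, S100A6 and S100A4 bind annexins, myosins or other cytoskeletal partners, S100A13 takes part in the export of proteins that lack a signal peptide, and S100A1 regulates calcium handling in muscle.

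All 8 genes lie on mouse chromosome 3. On GRCm38 with the GENCODE M21 annotation, 6 of them fall in a block of 12 S100 genes that spans 184.688 kb, chr3:90511034-90695721, and S100a11 and S100a10 fall in a second block of 44.156 kb, chr3:93520488-93564643. S100a8 (chr3:90668978-90670035, plus strand) and S100a9 (chr3:90692632-90695721, minus strand) are neighbours separated by 22.596 kb. S100a1 (chr3:90511034-90514392, minus strand) and S100a13 (chr3:90514435-90524581, plus strand) start back to back with 42 bp between them. The promoter windows of S100a8 and S100a9 are printed because these genes gave the highest values of the family and turned out to differ in how their libraries spread. Each window holds 250 bases before and 50 bases after the RefSeq start on GRCm38.p6, written 5′ to 3′ on the strand of the gene, and capitals mark motif matches. The motifs searched were GAGGAA for the core of PU.1 sites, which reads TTCCTC from the other strand, TTGCNNAA for C/EBP sites, TTCNNNGAA for STAT sites and TATAAA for the TATA box. Each was searched on both strands, and no match in these windows overlapped another.
S100a8, chr3:90668821-90669120, plus strand: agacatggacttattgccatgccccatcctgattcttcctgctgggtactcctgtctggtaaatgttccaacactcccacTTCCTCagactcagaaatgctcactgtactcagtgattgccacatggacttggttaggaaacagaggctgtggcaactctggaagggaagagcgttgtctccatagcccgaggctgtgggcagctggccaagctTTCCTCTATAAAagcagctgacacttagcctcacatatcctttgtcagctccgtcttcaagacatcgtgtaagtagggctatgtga
S100a9, chr3:90695672-90695971, minus strand: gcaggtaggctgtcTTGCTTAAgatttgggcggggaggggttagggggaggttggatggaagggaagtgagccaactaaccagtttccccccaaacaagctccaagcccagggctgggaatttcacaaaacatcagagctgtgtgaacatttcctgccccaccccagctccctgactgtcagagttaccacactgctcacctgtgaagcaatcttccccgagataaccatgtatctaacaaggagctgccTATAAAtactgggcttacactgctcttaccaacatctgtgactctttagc

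The S100a8 window held GAGGAA at 2 places, the later one directly abutting TATAAA, which began 30 bases before the RefSeq start. The GENCODE span of S100a8 begins farther upstream, at chr3:90668978, so this TATAAA lies within that span. The S100a9 window held TTGCTTAA 236 bases before the start and TATAAA at the start itself. Such matches are common: of 32817 promoter windows of the same length, 28.3% held GAGGAA, 10.8% held TTGCNNAA and 13.6% held TATAAA. Of the 7 members with a window, 3 held GAGGAA (S100a11, S100a4 and S100a8), 1 held TTGCNNAA and 3 held TATAAA (S100a4, S100a8 and S100a9). The STAT motif was found in 0 of the 7 and in 8.29% of all windows. The windows of S100a1 and S100a13 shared 204 bp read from opposite strands.

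The deposited values were treated as estimated counts in which a read pair is worth about 4, which was inferred from the values themselves. They summed to 85799370, 109757558 and 107124855 in CUMS replicates 1, 2 and 3, and to 78845457, 103483602 and 84814256 in Control replicates 1, 2 and 3, or 19711364 to 27439390 read-pair equivalents per library. Levels below are CPM, each gene's share of the library's counts scaled by TMM, and fold changes are log2 of CUMS over Control with standard errors from edgeR's quasi-likelihood test. A gene passed the test at an adjusted p under 0.05 over all genes tested.

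S100 transcripts made up a large part of the RNA in every library, and none of the 8 genes passed the test between CUMS and Control. S100a9 and S100a8 ranked 1 and 4 of 47561 rows by mean CPM, and per kb of exon they ranked 1 and 2. The 8 genes together took 6.09%, 4.40% and 4.66% of all counts in CUMS replicates 1, 2 and 3, against 6.53%, 6.09% and 5.60% in Control replicates 1, 2 and 3. The share averaged 5.05% ± 0.91 in CUMS and 6.07% ± 0.47 in Control (SD, n = 3 each). An exact two-sided permutation test gave p = 0.2, and 3 libraries against 3 allow no p below 0.1. Of the 8 members, 0 passed the edgeR test, and DESeq2 called 0. An unadjusted p under 0.05 was found for 2 members (S100a8 and S100a9) and for 2674 of the 15778 genes tested. At the adjusted threshold 4.5% of all genes tested passed, 2.36% higher and 2.14% lower in CUMS. The median log2 fold change was -0.15 over the 8 members and -0.01 over all genes tested. The groups overlapped in CPM for all 8 members, whereas 22.9% of genes tested had groups that did not overlap.

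S100a8 encodes the smaller subunit of calprotectin. It measured 19775, 11997 and 13583 CPM in CUMS replicates 1, 2 and 3, against 19315, 18772 and 19676 CPM in Control replicates 1, 2 and 3. CUMS replicates 2 and 3 lay below every Control library, and CUMS replicate 1, scaled with a TMM factor of 0.982, lay just above all of them. The mean was 15118 ± 4110 CPM in CUMS and 19254 ± 455 CPM in Control (SD, n = 3 each). In edgeR's test the log2 fold change was -0.35 ± 0.13 (adjusted p = 0.196), and its 95% interval before adjustment was -0.64 to -0.06. On the CPM values themselves an exact permutation test gave p = 0.4.

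S100a9 encodes the larger subunit. It measured 39454, 29065 and 30175 CPM in CUMS replicates 1, 2 and 3, against 43455, 39530 and 33828 CPM in Control replicates 1, 2 and 3. CUMS replicates 2 and 3 were again the lowest libraries of all, while CUMS replicate 1 fell within the Control range. The mean was 32898 ± 5705 CPM in CUMS and 38938 ± 4841 CPM in Control (SD, n = 3 each). The log2 fold change was -0.24 ± 0.11 (adjusted p = 0.271, 95% interval -0.48 to -0.01 before adjustment), and the exact permutation p of the CPM values was 0.2.

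**Figure D1:**
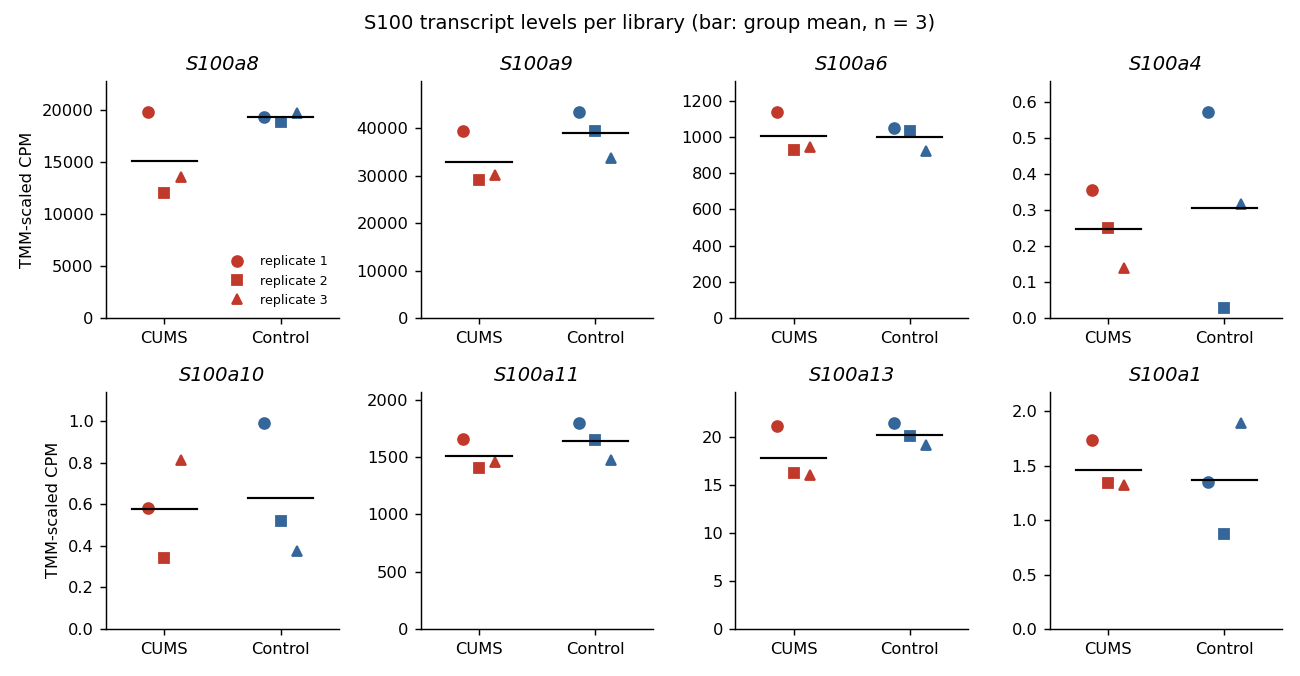
CPM of the 8 S100 genes in each library, 1 panel per gene with its own axis, CUMS left of Control; points are libraries, their shapes give the replicate, and horizontal lines are group means (n = 3). For S100a8, CUMS replicate 1 stands at 19775 CPM beside the Control libraries at 18772 to 19676 CPM, apart from the other CUMS libraries at 11997 and 13583 CPM.

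Both calprotectin genes passed when CUMS replicate 1 was left out. That library had the highest CUMS value of both, and of S100a11 and S100a13. Leaving it out therefore lowers their CUMS means and narrows their CUMS ranges by construction. The p-values and the lack of overlap without it are thus no separate support for a difference. With the other 5 libraries, S100a8 stood at -0.59 ± 0.04 on the log2 scale (adjusted p = 2.0e-04) and S100a9 at -0.39 ± 0.08 (adjusted p = 0.024) in edgeR's test. Without that library 2.07% of all genes tested were called lower. The 4 genes S100a8, S100a9, S100a11 and S100a13 then lay lower in CUMS with no overlap between the groups, as did 18% of all genes. S100a11 and S100a13 did not pass (adjusted p of 0.143 and 0.069). Limma's voom with sample quality weights gave CUMS replicate 1 the lowest weight of the 6 libraries, 0.780 against 0.894 to 1.18 for the other 5. That fit called S100a8 lower (-0.44 ± 0.11, adjusted p = 0.029) and not S100a9 (-0.28 ± 0.09, adjusted p = 0.093), with 2.9% of all genes called lower. When any other library was left out, 0 members passed, and the log2 fold changes of S100a8 and S100a9 kept a negative sign. Without Control replicate 3 the groups no longer overlapped for S100a9, as for 16.3% of all genes that were then lower without overlap.

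**Figure D2:**
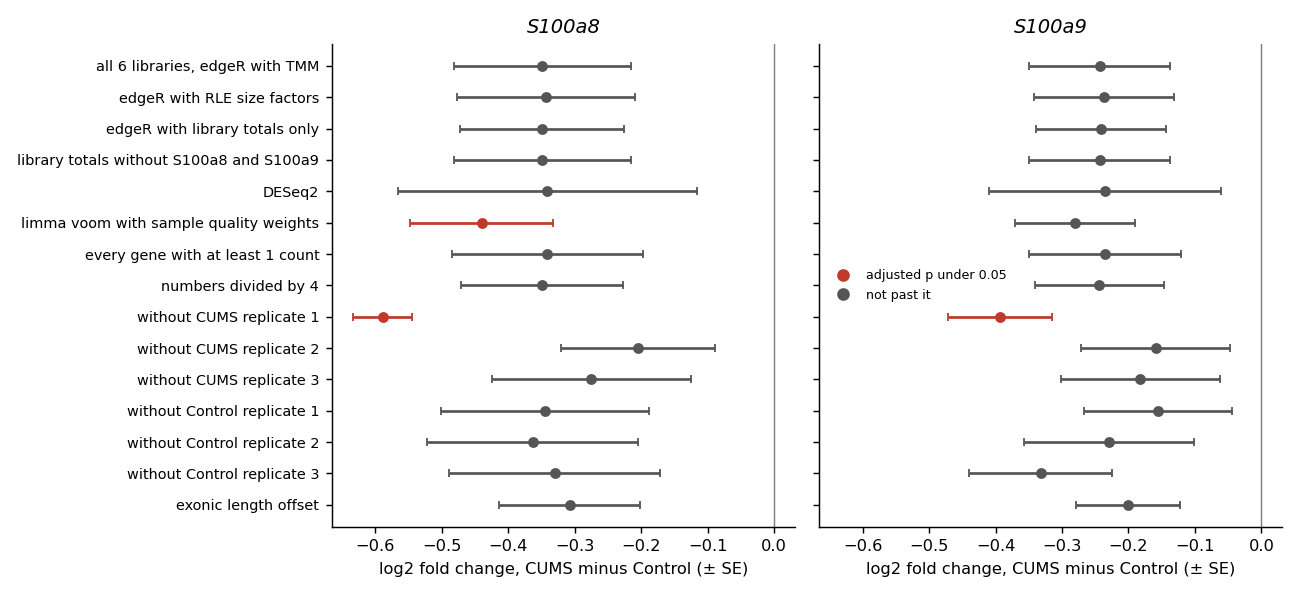
Log2 fold change (CUMS over Control) ± SE of S100a8 and S100a9, with settings of the analysis down the page. Red marks an adjusted p under 0.05. Not drawn is edgeR's fit with a replicate term, in which both genes also passed (adjusted p of 0.043 and 0.010). All values are below 0, and the lowest are those without CUMS replicate 1, the highest CUMS library of both genes, at -0.59 for S100a8 and -0.39 for S100a9. The setting with library totals without S100a8 and S100a9 repeats the main fit and is no separate check.

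The spread among the CUMS libraries was wide for a gene as abundant as S100a8. Its coefficient of variation was 27.2% over the CUMS libraries and 2.36% over the Control libraries, and its highest CUMS library exceeded its lowest by a factor of 1.65. Among the 110 genes with a mean of at least 1000 CPM, S100a8 ranked 1 by the SD of log2 CPM over the CUMS libraries, 0.38, where the median of these genes was 0.04. Over the Control libraries its SD was 0.03 and its rank 61. S100a9 ranked 3 over the CUMS libraries (SD 0.24) and 2 over the Control libraries (SD 0.18), so it varied in both groups. S100a6 ranked 7 and 8 and S100a11 ranked 10 and 3 in CUMS and Control. The other genes among the 6 of widest spread in CUMS were Tmsb4x, Retnlg, Ngp and Camp, which encode the actin-binding thymosin beta 4, a resistin-like secreted protein and 2 granule proteins and were named here after their values were seen. The difference in spread between the groups was not tested.

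S100a8 and S100a9 did not keep a fixed ratio. The S100a8 count was 0.501, 0.413 and 0.450 of the S100a9 count in CUMS replicates 1, 2 and 3, against 0.444, 0.475 and 0.582 in Control replicates 1, 2 and 3. The ratio averaged 0.455 ± 0.044 in CUMS and 0.500 ± 0.072 in Control (SD, n = 3 each), with an exact permutation p of 0.5. Within Control the ratio was highest in replicate 3, where S100a9 was lowest and S100a8 was not. The pair made up 95.5%, 94.6% and 94.8% of the members' summed CPM in CUMS replicates 1, 2 and 3, against 95.6%, 95.6% and 95.7% in Control replicates 1, 2 and 3. These shares did not overlap between the groups, which gave the smallest p that the exact permutation test allows, 0.1. No such share was computed for other genes.

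S100a11 and S100a6, the abundant members that bind annexins, overlapped between the groups and did not pass. S100a11, which binds annexin A1 and takes part in membrane repair, measured 1657, 1409 and 1458 CPM in CUMS replicates 1, 2 and 3, against 1801, 1652 and 1479 CPM in Control replicates 1, 2 and 3. The lowest Control library lay among the CUMS values. The means were 1508 ± 131 CPM in CUMS and 1644 ± 161 CPM in Control, and the log2 fold change was -0.12 ± 0.07 (adjusted p = 0.423, edgeR), with a 95% interval of -0.28 to 0.03. Some reads of S100a11 could be counted elsewhere, since 37.8% of its 75-base windows also occur in the pseudogene Gm12854 and 19.0% in Gm7665. Gm7665 was listed at 90.2 to 109 CPM in CUMS and 103 to 111 CPM in Control. S100a11 and its copies summed to 1637 ± 146 CPM in CUMS and 1786 ± 164 CPM in Control (SD, n = 3 each; exact permutation p = 0.3).

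S100a6, or calcyclin, binds annexins and the ubiquitin ligase adaptor CacyBP. It measured 1138, 930 and 945 CPM in CUMS replicates 1, 2 and 3, against 1047, 1035 and 920 CPM in Control replicates 1, 2 and 3. CUMS replicate 1 was the highest and Control replicate 3 the lowest of the 6 libraries. The means were 1004 ± 116 CPM in CUMS and 1001 ± 70 CPM in Control, and the log2 fold change was 0.00 ± 0.07 (adjusted p = 0.988, edgeR), with a 95% interval of -0.16 to 0.16, or folds of 0.897 to 1.12. Relative to S100a9, S100a6 counts were 0.0288, 0.0320 and 0.0313 in CUMS replicates 1, 2 and 3, against 0.0241, 0.0262 and 0.0272 in Control replicates 1, 2 and 3. These ratios did not overlap between the groups (exact permutation p = 0.1, the smallest possible). The S100a11 to S100a9 ratios overlapped, at 0.0420 to 0.0485 in CUMS and 0.0414 to 0.0437 in Control (exact permutation p = 0.2). How often ratios of other genes to S100a9 separate the groups was not computed.

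S100a13 measured 21.1, 16.2 and 16.03 CPM in CUMS replicates 1, 2 and 3, against 21.5, 20.0 and 19.1 CPM in Control replicates 1, 2 and 3. As with S100a9, CUMS replicate 1 lay within the Control range and CUMS replicates 2 and 3 below it. The means were 17.8 ± 2.9 CPM in CUMS and 20.2 ± 1.2 CPM in Control, with a log2 fold change of -0.18 ± 0.11 (adjusted p = 0.452, edgeR) and a 95% interval of -0.43 to 0.06.

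The last 3 members had the lowest counts, and their intervals were wide. S100a1, the calcium regulator of muscle, had 146, 149 and 143 estimated counts in CUMS replicates 1, 2 and 3, against 106, 90 and 161 in Control replicates 1, 2 and 3, or 1.32 to 1.73 CPM in CUMS and 0.871 to 1.90 CPM in Control. S100a10, the partner of annexin A2, had 49, 38 and 88 estimated counts in CUMS replicates 1, 2 and 3, against 78, 54 and 32 in Control replicates 1, 2 and 3, or 0.342 to 0.814 CPM in CUMS and 0.377 to 0.994 CPM in Control. S100a4, which binds non-muscle myosin, had 30, 28 and 15 estimated counts in CUMS replicates 1, 2 and 3, against 45, 3 and 27 in Control replicates 1, 2 and 3. A floor of 3 read pairs corresponds to 12 estimated counts, so Control replicate 2 lay under it for S100a4, and such floors cover counting error only. The log2 fold changes were 0.10 ± 0.31 for S100a1, -0.12 ± 0.50 for S100a10 and -0.29 ± 0.87 for S100a4 (adjusted p of 0.933, 0.947 and 0.925, edgeR). The 95% intervals allow folds of 0.666 to 1.71 for S100a1, 0.434 to 1.95 for S100a10 and 0.216 to 3.07 for S100a4, so changes of that size could not be told from none with these libraries. S100a4 also overlaps Gm42674, with which it shares 44.8% of its 75-base windows. Gm42674 was not among the deposited rows, so no counts were listed under it. How reads of the shared stretch were handled is not known, so the S100a4 value is uncertain.

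Per kb of exon, the order of the members was S100a9, S100a8, S100a11, S100a6, S100a13, S100a1, S100a10 and S100a4. S100a9 averaged 63023 ± 10929 CPM per kb in CUMS and 74594 ± 9274 in Control, and S100a8 averaged 21784 ± 5922 in CUMS and 27744 ± 656 in Control (SD, n = 3 each). S100a11 followed at 2951 ± 257 in CUMS and 3218 ± 315 in Control, and S100a6 at 734 ± 85 in CUMS and 732 ± 51 in Control. S100a13 averaged 24.9 ± 4.1 CPM per kb in CUMS and 28.3 ± 1.6 in Control. The 6 libraries of each of these 5 genes stayed clear of those of the next gene in the order. S100a1 averaged 2.111 ± 0.34 in CUMS and 1.98 ± 0.74 in Control. The ranges of S100a10 and S100a4 overlapped, at 0.478 ± 0.195 and 0.426 ± 0.186 in CUMS and 0.521 ± 0.266 and 0.526 ± 0.466 in Control. Genes close together could differ by orders of magnitude, as did S100a4 and S100a6, which lie 6.836 kb apart with S100a5 between them.

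**Figure D3:**
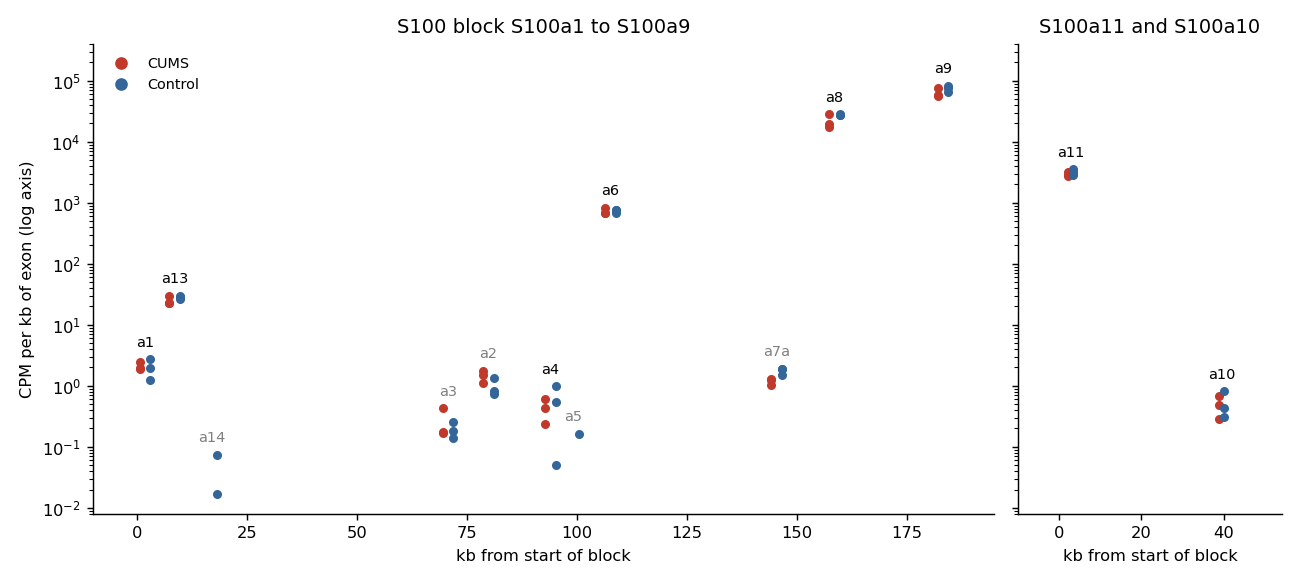
CPM per kb of exon (log axis) of the S100 genes along both chromosome 3 blocks, against distance in kb from the start of the block; points are libraries, CUMS drawn left of Control, black labels are members and grey labels other S100 genes. S100a6, S100a8 and S100a9 stand high beside S100a4 at 0.0497 to 0.982 CPM per kb, and values of 0 are not drawn.

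The order of the libraries was shared by several members. CUMS replicate 1 was the highest CUMS library for 7 of 8 members, all but S100a10, against 35.0% of all genes tested and 58 of the 110 genes of at least 1000 CPM. The order of S100a1 (146, 149 and 143 estimated counts in CUMS replicates 1, 2 and 3) and S100a4 (30, 28 and 15) rests on few counts. Control replicate 1 was the highest Control library for 6 of 8, against 36.3% of all genes and 55 of those 110. These replicates had the lowest total counts of their groups. The transcripts of the members are also short, with 511 to 1367 bp of exon and a median of 694 bp, and 6 of 8 have at most 1000 bp, against 10.9% of genes tested and 1.48% of genes of at least 100 CPM. Other genes of at most 1000 bp and at least 10 CPM (168 genes) had median deviations from their mean log2 CPM of 0.09, -0.11 and -0.07 in CUMS replicates 1, 2 and 3, against 0.09, 0.03 and 0.00 in Control replicates 1, 2 and 3. The 3053 genes longer than 5000 bp ran the other way, at -0.01, 0.03 and 0.02 in CUMS replicates 1, 2 and 3, against -0.04, 0.00 and 0.01 in Control replicates 1, 2 and 3. With a correction for exon length per library, chosen after these values were seen and available for 87.7% of genes tested, S100a8 stood at -0.31 ± 0.11 (adjusted p = 0.111) and S100a9 at -0.20 ± 0.08 (adjusted p = 0.169). S100a8 still measured 19231, 12591 and 14145 CPM in CUMS replicates 1, 2 and 3 after this correction, against 18350, 18779 and 19770 CPM in Control replicates 1, 2 and 3. CUMS replicate 1 then lay within the Control range and the other CUMS libraries below it. The part of transcript length, RNA quality or depth in the remaining differences was not tested.

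**Figure D4:**
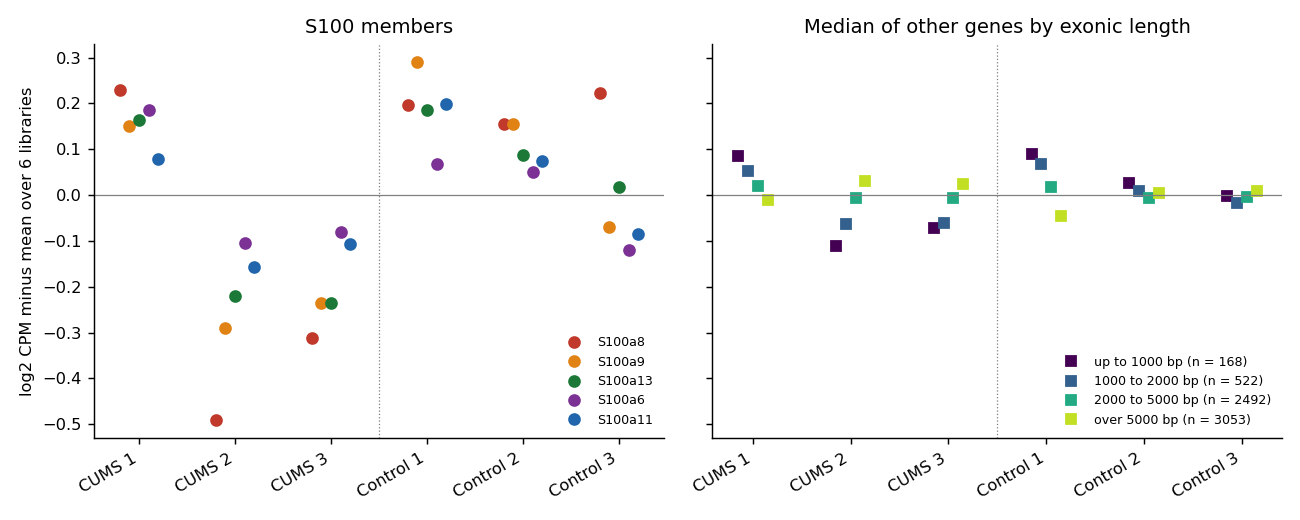
Deviation of log2 CPM from its mean over the 6 libraries, CUMS left of Control, for 5 S100 genes (left) and as the median of other genes grouped by exon length (right); points are slightly offset sideways so that they do not hide each other. Within each group, short genes run in the same library order as S100a9, and S100a8 stays level across the Control libraries.

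Likeness to the profile of S100a8 was measured against genes outside the family and within it. Over the 6 libraries and 1926 genes of at least 100 CPM, the nearest by root mean square distance between centred log2 CPM profiles was Wfdc21, at 0.06, a gene for a secreted protein with a WAP domain. Wfdc21 measured 306, 195 and 218 CPM in CUMS replicates 1, 2 and 3, against 291, 306 and 284 CPM in Control replicates 1, 2 and 3 (log2 fold change -0.29 ± 0.12, adjusted p = 0.251). Its libraries repeat the pattern of S100a8, with CUMS replicate 1 level with Control and the other CUMS libraries below. Next came the interferon-induced membrane protein gene Ifitm1 at 0.13, the G protein subunit gene Gng5 at 0.14 and the mitochondrially encoded COX3 and COX2 at 0.14. S100a9 was only the gene of rank 12 by likeness to S100a8, S100a11 had rank 88 and S100a6 rank 211. Of these, Ifitm1 passed the test (-0.36 ± 0.07, adjusted p = 0.018), with 212, 171 and 180 CPM in CUMS replicates 1, 2 and 3, against 258, 230 and 234 CPM in Control replicates 1, 2 and 3. Nearest to S100a9 were Plac8 at 0.05 and Cd52 at 0.06, and S100a11 had rank 10 there. These distances describe 6 shared libraries and carry no test.

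Of 11 further genes of the family list, 4 were tested and 0 passed. S100a7a, the mouse relative of psoriasin, measured 1.78, 1.42 and 1.69 CPM in CUMS replicates 1, 2 and 3, against 2.63, 2.109 and 2.63 CPM in Control replicates 1, 2 and 3. Its groups did not overlap, but the log2 fold change of -0.59 ± 0.21 did not pass (adjusted p = 0.168). S100pbp, a binding partner of S100P in humans, stood at 21.2 ± 1.1 CPM in CUMS and 20.9 ± 2.0 CPM in Control (SD, n = 3 each). S100a2 and S100a3 made up the rest of the tested genes. S100a7l2, S100a16 and S100z were listed at 0 in all 6 libraries.

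Among 14 genes for receptors of S100A8 and S100A9 and their signalling, all tested, 1 fell and 0 rose. Cd14, the co-receptor that hands ligands to TLR4, measured 37.8, 35.6 and 37.9 CPM in CUMS replicates 1, 2 and 3, against 56.5, 62.1 and 49.3 CPM in Control replicates 1, 2 and 3. Every CUMS library lay below every Control library, and the log2 fold change was -0.59 ± 0.08 (adjusted p = 0.0015, edgeR). Cd33, whose human counterpart binds S100A9, had the highest CPM of the list, with 967 ± 28 CPM in CUMS and 931 ± 26 CPM in Control (adjusted p = 0.536). Tirap, the adaptor that recruits MyD88 to TLR4, was next by CPM and did not pass. Tlr4, named after its values were seen, stood at 108 ± 4 CPM in CUMS and 109 ± 5 CPM in Control (adjusted p = 0.892). The median log2 fold change of the list was -0.03.

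Of 24 genes for S100 binding partners, 17 were tested, 1 rose and 0 fell, with a median log2 fold change of 0.03. Ncf1 encodes p47phox, a subunit of the NADPH oxidase to which calprotectin delivers arachidonic acid. It measured 2960, 2918 and 2964 CPM in CUMS replicates 1, 2 and 3, against 2696, 2692 and 2641 CPM in Control replicates 1, 2 and 3. These groups lay apart, with a log2 fold change of 0.14 ± 0.03 (adjusted p = 0.023). Myh9, the heavy chain of non-muscle myosin that S100A4 binds, and Anxa1, the partner of S100A11, had the highest CPM of the partners, with log2 fold changes of 0.05 ± 0.05 and -0.08 ± 0.05 (adjusted p of 0.719 and 0.417). Anxa2, the partner of S100A10 and named after its values were seen, had 1351 ± 106 CPM in CUMS and 1535 ± 28 CPM in Control and did not pass (-0.18 ± 0.05, adjusted p = 0.066).

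Other alarmins and antimicrobial proteins of neutrophils formed a list of 14 genes, of which 13 were tested, 4 fell and 0 rose, with a median log2 fold change of -0.12. Il1b, the gene for interleukin-1 beta, measured 626, 593 and 603 CPM in CUMS replicates 1, 2 and 3, against 799, 799 and 730 CPM in Control replicates 1, 2 and 3. No CUMS library reached the Control range, and the log2 fold change was -0.35 ± 0.04 (adjusted p = 0.0010). Hmgb2, a chromatin protein of the HMGB alarmin family, fell by 0.18 ± 0.04 on the log2 scale (adjusted p = 0.034), and Camp, the cathelicidin precursor, fell by 0.27 ± 0.07 (adjusted p = 0.046). Ltf, the iron-binding lactoferrin of secondary granules, measured 20033, 20037 and 19476 CPM in CUMS replicates 1, 2 and 3, against 21301, 21067 and 22012 CPM in Control replicates 1, 2 and 3. The log2 fold change of Ltf was -0.11 ± 0.03 (adjusted p = 0.044), and its CUMS libraries lay close together and all below Control. Ngp, another granule protein gene, measured 19454, 14589 and 16963 CPM in CUMS replicates 1, 2 and 3, against 20313, 18499 and 18995 CPM in Control replicates 1, 2 and 3, and did not pass (-0.18 ± 0.08, adjusted p = 0.269). For Ngp, as for S100a9, CUMS replicate 1 lay within the Control range and the other CUMS libraries below it.

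**Figure D5:**
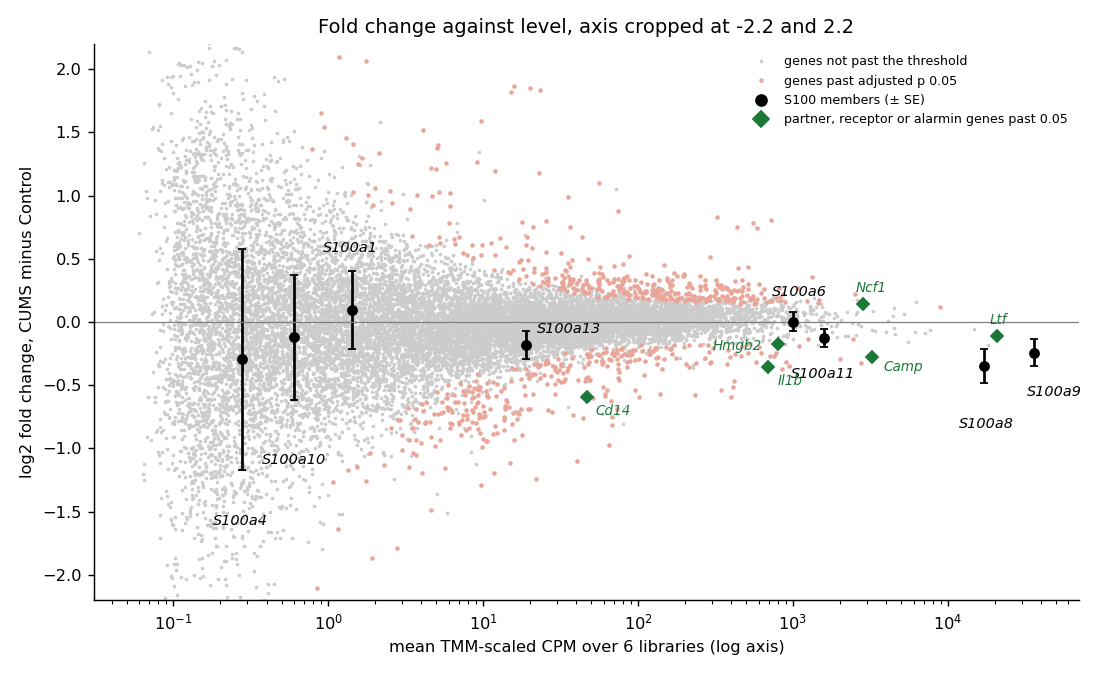
Log2 fold change (CUMS over Control) against mean CPM (log axis) for all genes tested, with the 8 S100 genes in black ± SE and the receptor, partner and alarmin genes that passed as green diamonds; red points passed at an adjusted p of 0.05 and 109 genes lie outside the drawn range of -2.2 to 2.2. S100a9 and S100a8 stand at the far right at -0.24 and -0.35 with wider errors than Ltf at -0.11, and S100a4 at the far left has an SE of 0.87.

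Of 12 transcription factors linked to myeloid S100 genes, 12 were tested and 0 passed in either direction, with a median log2 fold change of -0.01. Highest in CPM were Spi1, which encodes PU.1, at 480 ± 17 CPM in CUMS and 486 ± 14 CPM in Control, and Stat3 at 421 ± 5 CPM in CUMS and 440 ± 5 CPM in Control (adjusted p of 0.892 and 0.420). Of 29 other genes near the S100 blocks on chromosome 3, 18 were tested, 0 rose and 1 fell, with a median of -0.05. That gene was Slc27a3, a fatty acid transporter family member, with 3.12, 2.83 and 3.46 CPM in CUMS replicates 1, 2 and 3, against 4.79, 4.54 and 5.45 CPM in Control replicates 1, 2 and 3 (-0.65 ± 0.16, adjusted p = 0.040). The neighbours highest in CPM were Tpm3 and Dennd4b, and neither passed.

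The libraries carried high levels of neutrophil markers, as their label says, with those of other cells far lower. Summed over 12 neutrophil markers, all detected, the level was 74677 to 83369 CPM in CUMS and 80087 to 84045 CPM in Control. Of 10 markers of immature neutrophils, 5 fell (Ltf, Camp, Fcnb, Chil3 and Olfm4) and 0 rose, and their sum was 56903, 50233 and 52210 CPM in CUMS replicates 1, 2 and 3, against 60417, 57615 and 58877 CPM in Control replicates 1, 2 and 3. This sum, like S100a8 and S100a9, was higher in CUMS replicate 1 than in the other CUMS libraries, though it stayed below every Control library. Ngp alone measured 19454, 14589 and 16963 CPM in CUMS replicates 1, 2 and 3. Not every marker followed this order. Among the CUMS libraries Ltf, Fcnb and Olfm4 were highest in replicate 2, and the other markers of this list in replicate 1. Of 12 markers of mature neutrophils, 2 rose and 4 fell, and their sum was 27727 to 28721 CPM in CUMS and 27186 to 28068 CPM in Control. In bulk RNA, fewer cells of a type and less RNA per cell cannot be told apart. Of 13 monocyte markers, 3 rose (Csf1r, F13a1 and Fn1). The 13 summed to 1602 to 1742 CPM in CUMS and 1575 to 1640 CPM in Control. Most of that sum came from Mpeg1 (mean 895 CPM in CUMS and 819 in Control) and Ly6c2 (484 and 530), and neither passed. Erythroid markers, of which 7 of 10 rose, summed to 2015 to 2385 CPM in CUMS and 1026 to 1485 CPM in Control, with CUMS replicate 1 the highest. Markers of basophils and mast cells, of which 1 of 7 fell (Hdc), summed to 815 to 847 CPM in CUMS and 1047 to 1064 CPM in Control, nearly all of it from Hdc itself, at 812 to 844 CPM in CUMS and 1040 to 1059 CPM in Control. Eosinophil markers summed to 51.6 to 60.1 CPM in CUMS and 44.9 to 51.9 CPM in Control (2 of 8 rose, 0 fell). Most of that sum came from Siglecf and Ear2, which did not pass. The genes that rose were Prg2 (mean 4.82 CPM in CUMS and 0.885 in Control) and Epx (1.49 and 0.119). Progenitor markers summed to 70.9 to 80.8 CPM in CUMS and 70.6 to 73.6 CPM in Control (2 of 8 rose, 0 fell). Most of it came from Kit and Myb, which did not pass, and Elane (mean 2.13 CPM in CUMS and 0.454 in Control) and Mpo (6.95 and 3.42) rose. B cell markers summed to 31.5 to 36.6 CPM in CUMS and 21.5 to 29.2 CPM in Control, and T and NK cell markers to 0.908 to 1.57 CPM in CUMS and 0.966 to 1.70 CPM in Control, with 0 passing in both lists. No marker of these lists was at 0 in all 6 libraries. The part of these cells in the S100 values was not tested.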

How the data were processed

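Gene-level values of 6 libraries of sorted mouse bone marrow neutrophils were used, 3 CUMS and 3 Control, each made from 1 µg of RNA and read as pairs of 150 bp per the labels' protocols. Per the submitters' processing notes, bcl2fastq 2.19, cutadapt 1.16.5, HISAT2 2.1, featureCounts 1.6.4, DESeq2 2.11.40.6 and mm10 were used. The deposited whole numbers, 1 per gene and library, were treated as estimated counts in which a read pair is worth about 4. That worth was inferred: the values 4, 8, 12 and 16 were over-represented against adjacent values by factors of 1.89, 1.66, 1.41 and 1.38. In addition, 1588 rows carry identifiers of assembled transcripts. Whether strand was kept is not given in the sources used here, so overlapping genes are uncertain.

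These whole numbers were tested unrounded with edgeR 4.0.16 (R 4.3.3; filterByExpr, TMM, quasi-likelihood F test, group as the only term), adjusted by Benjamini-Hochberg over 15778 genes at 0.05. SEs were derived from F, and CPM errors are SD. Log2 profiles used a prior count of 2. The test was also run on simulated counts with known changes, whose outcome is not given here. These counts lacked the steps of 4 and the trend with exon length per library. Lengths and positions come from GENCODE M21, and promoters from RefSeq (7 of 8 members matched). Of each gene list, all genes past the threshold (up to 6 by adjusted p) and the 2 of highest mean CPM were named, with the 5 genes nearest to S100a8. The members, lists and alternatives were chosen with earlier results of these data known. Alternatives were DESeq2 1.42.0, limma 3.58.1 (voom), other scalings and filters, division by 4, a replicate term, each library left out and a length correction.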

Additional observations from a re-analysis of the deposited data

How the results depend on the processing

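Of the 8 members, S100a8, S100a9, S100a11 and S100a13 had a negative log2 fold change in edgeR with all libraries and under each of 15 alternatives. Among these, library totals without S100a8 and S100a9 returned the main values for every member and the same 710 genes, because TMM rescaled the libraries afterwards. That setting is therefore no separate check. The count of members past the threshold was 0, but 1 with voom quality weights and 0 to 2 with 1 library left out. S100a8 was -0.44 with voom weights and -0.59 to -0.20 with 1 library left out, and S100a9 -0.39 to -0.16. Over all genes, 710 passed, 1146 with DESeq2 (688 shared), 462 with every gene of at least 1 count tested, and 305 to 697 with 1 library left out. The sign was not stable for members near 0 or at low counts. S100a6 was -0.027 with voom weights and -0.094 to 0.059 with 1 library left out, S100a4 0.64 and -0.84 to 0.53, S100a10 -0.45 to 0.36 and S100a1 -0.15 to 0.40 with 1 library left out. S100a4 gave no value with numbers divided by 4, because too few counts remained for the filter, and DESeq2 gave S100a4 and S100a10 no adjusted p. The cause of the other changes was not tested.

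Replicate numbers are shared between the groups. Over all genes tested, the deviations of same-numbered libraries correlated at 0.01, 0.00 and -0.03, and not every library correlated best with its own number. With 3 libraries per group this check cannot tell whether the numbers pair the samples, and the main fit has no replicate term. With the replicate block, 2 members passed, S100a8 at -0.38 (adjusted p = 0.043) and S100a9 at -0.25 (adjusted p = 0.010), S100a4 stood at 0.13, and 931 genes passed over all. S100a4, S100a10 and S100a1 had the lowest counts, and the parts of depth and of the spread between libraries in their wide intervals were not separated.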

Other observations

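Calcium-binding genes outside the S100 family were listed as well. Of 22 genes for EF-hand calcium sensors and proteins of calcium stores, 22 were tested, 0 rose and 1 fell, with a median log2 fold change of -0.05. The gene that fell was Canx, which encodes calnexin, a calcium-binding chaperone of the endoplasmic reticulum. It measured 72.2, 69.4 and 74.4 CPM in CUMS replicates 1, 2 and 3, against 81.2, 82.8 and 86.5 CPM in Control replicates 1, 2 and 3 (-0.21 ± 0.05, adjusted p = 0.034, edgeR). Lcp1, the actin-bundling plastin of leukocytes, had the highest CPM of the list, with 5930 ± 160 CPM in CUMS and 6273 ± 99 CPM in Control (SD, n = 3 each), and did not pass (adjusted p = 0.201). Capn1, a calcium-activated protease, was next by CPM and did not pass.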
